A study of Mus musculus with 96 samples.

Results

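The comparison described here is late myogenic differentiation in C2C12 cells: myotubes kept for 4 days in low serum against cells taken 1 day after the same switch. C2C12 is a clonal, immortalised mouse myoblast line whose cells leave the cell cycle, fuse and build contractile filaments when serum is withdrawn. The members were the 3 samples labelled as untransduced day 4 tubes with DMSO and the 3 labelled as untransduced cells after 24 h in horse serum with DMSO, 6 of the 96 samples of the series. All 6 were grown to confluence in 20% dialyzed serum with 10 mM glucose and 4 mM glutamine, moved to 2% dialyzed horse serum, and exposed to the DMSO vehicle for 10 h, beginning 24 h after the switch for the day 1 cells and after 4 days for the myotubes. No transgene was introduced into either group, and the 4 transgene sequences of the reference had 0 counts in these samples. The line is 1 clone, a well holds unfused cells beside fused ones, and the groups differ as labelled in the day and in the plate codes described below. The same day 4 against day 1 comparison was also available in 6 samples with piericidin, an inhibitor of respiratory complex I (0.5 µM), and in 6 with oligomycin, an inhibitor of the mitochondrial ATP synthase (1 µM), each for 10 h. No sample is shared between these 3 comparisons.

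Skeletal muscle differentiation is driven by a family of basic helix-loop-helix factors (Myf5, MyoD, myogenin and MRF4, the product of Myf6) that act with the MEF2 proteins on muscle genes. Early in the process the committed myocytes turn on embryonic contractile proteins and the fusion machinery. Later, the growing myotubes exchange embryonic and cardiac protein isoforms for adult ones, assemble Z discs and the triads where the electrical signal releases calcium, and take up the energy metabolism of a contractile fibre. Reserve cells, which stay mononuclear and undifferentiated, are a known minor population of differentiating C2C12 cultures.

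The 6 libraries held 9810751 to 12067492 estimated counts. One locus, CT010467.1, took 24.6% to 26.88% of the counts at day 1 and 27.13% to 29.58% at day 4. Each sample carries a code in the form of a position on a 96-well plate, and the labels do not say which step the plate belongs to. By these codes all 3 day 1 samples were in outer wells and all 3 day 4 samples in inner wells, so that day and well position cannot be told apart in these 6 samples. Of the day 4 oligomycin samples, 2 came from outer wells like all the day 1 samples, and values within outer wells are given below. With each treatment, day 4 samples came from other plate columns than day 1 samples, so that day and column cannot be told apart. Levels are CPM, the counts of a gene relative to all counts of its library, scaled by the trimmed mean of M values, folds are day 4 over day 1 on the log2 scale, and p-values are from edgeR's quasi-likelihood test adjusted by Benjamini and Hochberg across the tested genes. The labels do not say that replicates were separate cultures, and the p-values measure the spread between these samples. Because these are bulk samples, fewer cells of a type and less RNA per cell cannot be told apart.

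Of 11995 genes tested, 2590 (21.6%) were higher in day 4 myotubes and 2261 (18.8%) were lower at an adjusted p under 0.05. With a change of at least 2-fold in addition, 825 were higher and 277 lower. The median log2 fold change over all genes tested was -0.018. Of the genes called, 53.4% were higher, and with scaling by library totals alone this split was 36.6% (1992 higher and 3446 lower) and the median of all genes was -0.124. The lists of genes below are read against these shares, and small changes of 1 gene against that shift.

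The labels were first checked against marker genes. Both groups expressed genes of differentiated muscle. Acta1, the skeletal α-actin, was at 5803, 5994 and 6155 CPM at day 1 and 6046, 6228 and 6159 CPM at day 4. Ckm, the muscle creatine kinase, was at 576, 579 and 581 CPM at day 1 and 542, 569 and 547 CPM at day 4. Mymk, which encodes the fusion protein myomaker, was at 694, 710.4 and 723 CPM at day 1 and 744, 736 and 739 CPM at day 4. These 3 genes were thus already near their day 4 level at day 1, with log2 fold changes of 0.06, -0.04 and 0.08 (adjusted p = 0.0226, 0.346 and 0.048), and with scaling by library totals alone the values for Acta1, Ckm and Mymk were -0.04, -0.15 and -0.02, of which that of Ckm was called (adjusted p = 0.00727). The Mymk call was also lost whenever 1 library was left out, and the Acta1 call without day 1 replicate 1 or day 4 replicate 2 or 3. Upper quartile scaling, no count filter, the replicate block and both fits of all 96 samples ended both calls, DESeq2 ended that of Acta1, and the fit with the inhibitor samples ended that of Mymk (adjusted p from 0.0615 to 0.639 for Acta1 and from 0.0864 to 0.519 for Mymk). Of the other myotube markers, Tnnt3 (fast troponin T) and Chrna1 (the acetylcholine receptor α subunit) rose from 541 to 1077 CPM and from 1206 to 1467 CPM, and Myh8, the perinatal myosin, rose from 42.6 to 83.3 CPM. Of the 7 myoblast markers, 6 fell: Pax7 from 12.6 to 5.1 CPM, Myf5 from 17.7 to 8.91 CPM, Myod1 from 204 to 157 CPM, Id3 from 67.7 to 29.1 CPM, Mki67 from 19.1 to 12.9 CPM and Top2a from 74.9 to 43.7 CPM. Id1 was at 27.0 CPM and 24.4 CPM (adjusted p = 0.284), and Id2, of the same family, rose. For scale, myosin Myh3 had 0.0682 CPM per kb of exon in 3 samples of proliferating C2C12 myoblasts carrying a luciferase transgene, and 304 CPM per kb in the day 1 cells. In the same myoblasts Id3, Mki67 and Top2a were at 479, 108 and 389 CPM, above both days, as was Id1 at 122 CPM, whereas Pax7 and Myod1 were at 2.62 and 121 CPM, below both days, and Myf5 at 10.8 CPM, between them. Those myoblasts differ from the day 1 cells in transgene and medium as well as in stage, and are given as a description only.

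**Figure D1:**
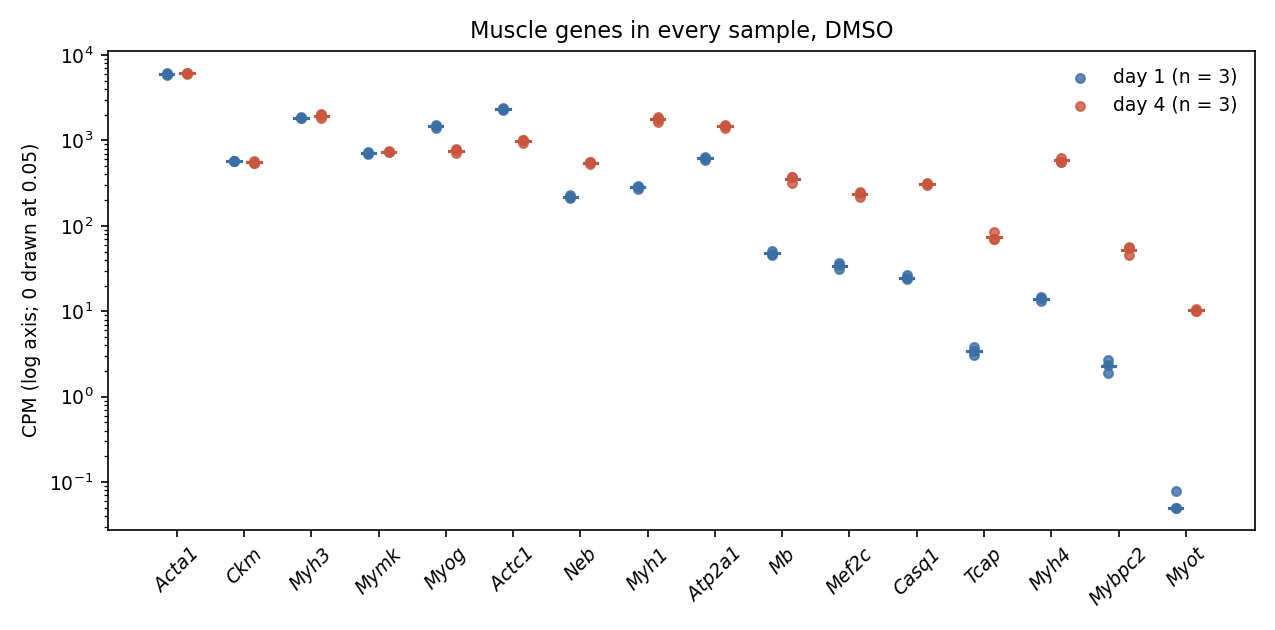
Level (CPM, log axis) of 16 muscle genes in each of the 3 day 1 and 3 day 4 samples with DMSO, with bars at the means and values of 0 drawn at 0.05. Acta1, Ckm, Myh3 and Mymk had similar levels on both days, Myog and Actc1 were lower at day 4, and the other genes were higher.

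The regulators of the programme changed in both directions. Of 23 myogenic transcription factor genes tested, 6 rose and 10 fell, with a median log2 fold change of -0.3. Myog, which encodes myogenin, was at 1393, 1487 and 1524 CPM at day 1 and 784, 765 and 703 CPM at day 4. The day 4 samples all lay below the day 1 samples, and the log2 fold change was -0.94 ± 0.04 (SE) (adjusted p = 3.69e-10). Myod1 fell less, from 204 to 157 CPM (-0.35 ± 0.05 (SE), adjusted p = 4.84e-05). Mef2c, whose product acts with the basic helix-loop-helix factors, was at 36.4, 31.1 and 34.8 CPM at day 1 and 219, 240.1 and 249 CPM at day 4. Its levels did not overlap between the days, and it rose by 2.81 ± 0.07 (SE) (adjusted p = 1.48e-12), while Mef2a and Mef2d rose by 0.59 and 0.64. Myf6, whose product MRF4 marks maturing fibres, was at 0.188, 0.46 and 0 CPM at day 1 and 4.86, 2.56 and 3.13 CPM at day 4 (4.04 ± 0.56 (SE), adjusted p = 5.19e-05). Among 16 genes for proteins that hold the myogenic factors in check, 5 rose and 8 fell. Hey1, a Notch target, fell from 8.83 to 2.23 CPM and Snai2 from 36.3 to 17.7 CPM, while Bhlhe40 rose from 75.4 to 198 CPM and Id2 from 16.7 to 27.6 CPM. Hes1, another Notch target, was at 3.2, 4.32 and 2.89 CPM at day 1 and 12.1, 12.6 and 9.96 CPM at day 4, a rise of 1.76 ± 0.21 (SE) (adjusted p = 1.01e-05). In the fit over all 96 samples with a term for the well position, the Hes1 value was 0.44 (adjusted p = 0.45). With piericidin Hes1 rose by 1.57 (adjusted p = 0.000116), and with oligomycin it stood at -0.73 (adjusted p = 0.0653), or at -0.89 (adjusted p = 0.0584) in the outer wells alone.

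The thick filament, the myosin-based part of the sarcomere, changed almost throughout. Of 20 thick filament genes tested, 19 rose and 0 fell, 13 of them by at least 2-fold, with a median log2 fold change of 1.23. The largest change was in Myh4, the myosin heavy chain of the fastest (IIB) adult fibres, at 14.2, 13.1 and 14.5 CPM at day 1 and 559.7, 559.8 and 629 CPM at day 4. The 2 groups were far apart, and Myh4 rose by 5.41 ± 0.07 (SE) (adjusted p = 1.95e-15). Myh1, the IIX heavy chain of fast fibres, was at 271, 287 and 289 CPM at day 1 and 1626, 1789 and 1895 CPM at day 4 and rose by 2.67 ± 0.05 (SE) (adjusted p = 9.14e-14). Myh2, the IIA chain, rose to a far lower level, from 4.46 to 22.5 CPM (2.35 ± 0.17 (SE)). Myh3, the embryonic heavy chain, was at 1811, 1875 and 1833 CPM at day 1 and 1816, 2001 and 2045 CPM at day 4. The Myh3 samples of the 2 days overlapped, and its change of 0.11 ± 0.04 (SE) on the log2 scale (adjusted p = 0.03) was small, lost its call with upper quartile scaling (adjusted p = 0.171) and without day 1 replicate 1 or 3 or day 4 replicate 2 or 3, and stood at 0.01 with scaling by library totals alone. The slow and cardiac chains Myh7 and Myh6 rose from 75.8 to 152 CPM and from 10.4 to 21.6 CPM.

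Divided by exon length, so that the chains could be compared with each other, Myh3 made up 83.1% of the summed level of 8 myosin heavy chains at day 1, Myh1 12.2% and Myh4 0.634%. At day 4, Myh3 made up 44.2%, Myh1 38.2% and Myh4 13.2%. The adult fast chains thus came to stand beside the embryonic chain, whose own level per kb was 304 ± 5.42 (SD, n = 3) at day 1 and 323 ± 20.1 at day 4. The other chains of the list (Myh2, Myh6, Myh7, Myh7b and Myh8) each stayed under 3% of the sum on both days, with Myh7 at 2.4% and 2.42%. The heavy chain genes are close copies of each other, and how the short reads of shared stretches were divided among them is uncertain.

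Around the heavy chains, the myosin-binding proteins and light chains also changed. Mybpc2, the fast myosin-binding protein C, was at 1.88, 2.67 and 2.34 CPM at day 1 and 45.6, 56.4 and 54.5 CPM at day 4 and rose by 4.52 ± 0.14 (SE) (adjusted p = 1.57e-11). Mybpc1, its slow counterpart, rose from 6.3 to 43.6 CPM. The ventricular and slow light chain gene Myl2 rose from 1.01 to 11.2 CPM and the kinase gene Mylk2, whose product phosphorylates the light chains, rose from 5.54 to 24.6 CPM. Against these stood genes that were abundant early and moved little: Mylpf, the fast regulatory light chain, rose from 2423 to 3104 CPM and Mybph from 1349.9 to 1556 CPM (not called in the fit of all 96 samples without a well term, adjusted p = 0.0939). Myl6b was the 1 tested member that was not called (-0.18, adjusted p = 0.506).

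**Figure D2:**
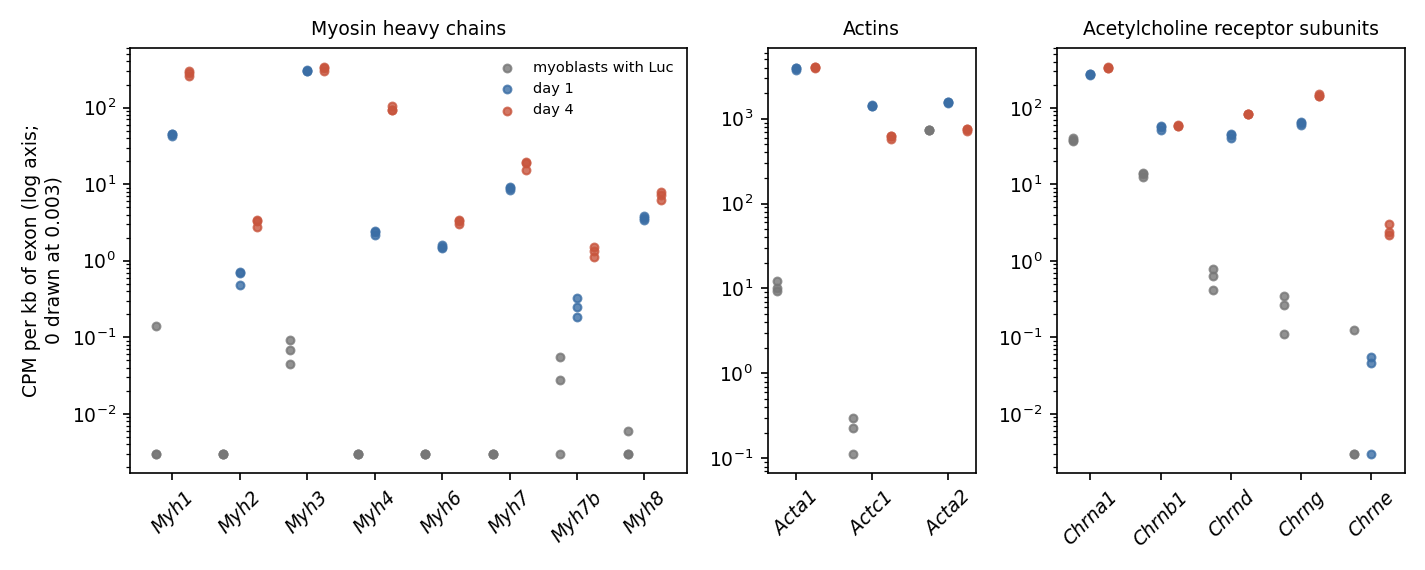
Level per kb of exon (CPM per kb, log axis) of myosin heavy chains, actins and acetylcholine receptor subunits in 3 samples each of proliferating myoblasts with Luc, day 1 cells and day 4 myotubes, with values of 0 drawn at 0.003. Myh1 and Myh4 rose between day 1 and day 4 while Myh3 went from 304 to 323 CPM per kb, Actc1 and Acta2 fell, and Chrne left the floor at day 4.

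In the thin filament, 11 of 16 tested genes rose and 1 fell, with a median log2 fold change of 0.4. The 1 that fell was Actc1, the cardiac α-actin that embryonic muscle uses, at 2313, 2292 and 2376 CPM at day 1 and 943, 1009.6 and 1004 CPM at day 4, with no overlap between the days (-1.22 ± 0.03 (SE), adjusted p = 1.35e-12). Acta1 stood at 3896 and 4000.4 CPM per kb. Actc1 went from 20.9% to 11.4% of the summed level per kb of Acta1, Actc1 and the smooth muscle actin gene Acta2, and Acta2 from 22.6% to 13.9%. Neb, which encodes the giant ruler protein nebulin, rose from 219 to 548 CPM (1.35 ± 0.05 (SE)), the slow troponin T gene Tnnt1 from 220.2 to 519 CPM (1.26 ± 0.04 (SE)) and the fast troponin I gene Tnni2 from 259 to 499 CPM (0.97 ± 0.04 (SE)). The tropomyosin gene Tpm1 was at 1529.8 CPM and 1540.4 CPM (adjusted p = 0.352).

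At the Z disc, where thin filaments are anchored, 24 of 27 tested genes rose and 2 fell, with a median log2 fold change of 0.7. Myot, encoding the α-actinin partner myotilin, had 0, 0 and 0.0781 CPM at day 1, a single count over the 3 libraries, and 10.1, 10.2 and 10.5 CPM at day 4. The ratio of the days was 354, with a 95% counting interval from 63 to 14009.7. Tcap, which encodes the titin cap, was at 3.39, 3.77 and 3.04 CPM at day 1 and 69.7, 70.9 and 83.9 CPM at day 4 and rose by 4.49 ± 0.12 (SE) (adjusted p = 3.02e-12). The stretch-responsive gene Ankrd23 rose from 67.2 to 252 CPM, and Des, encoding the intermediate filament desmin that ties Z discs together, rose from 2093 to 3927 CPM. Titin itself (Ttn) rose little, from 566 to 696 CPM (0.32 ± 0.05 (SE)), and was not called in the fit of all 96 samples with a well term (adjusted p = 0.0762) or without it (0.0588). Both falling members, Ankrd2 (from 98 to 37.1 CPM) and Fhl1 (from 409.9 to 237 CPM), encode stress-responsive proteins of the Z disc and the titin spring.

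Taken as a share of all estimated counts, the 70 genes of the thick filament, thin filament and Z disc lists made up 3.27%, 3.22% and 3.32% of each day 1 library and 4.11%, 4.22% and 4.44% of each day 4 library. The groups did not overlap. The difference of means was 0.985 percentage points (exact permutation test, two-sided, p = 0.1, which is the smallest value that 3 samples against 3 can give). With CT010467.1 left out of the totals the difference was 1.56 points.

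The coupling of the membrane signal to calcium release and its clearance showed 15 of 25 tested genes rising and 2 falling, with a median of 0.65. Casq1, the calcium-binding protein that loads the store of fast fibres, was at 26.3, 23.6 and 24.6 CPM at day 1 and 305, 301 and 321 CPM at day 4 and rose by 3.66 ± 0.06 (SE) (adjusted p = 2.54e-14). Trdn, encoding triadin, which ties calsequestrin to the release channel, was at 5.83, 5.15 and 4.45 CPM at day 1 and 29.1, 29.2 and 27.6 CPM at day 4 and rose by 2.50 ± 0.14 (SE). The release channel gene Ryr1 rose from 71.4 to 187 CPM, the calcium pump gene Atp2a1 from 617 to 1474 CPM, the calcium channel β subunit gene Cacnb1 from 32.1 to 104 CPM, and Bin1, whose product shapes the T tubules, from 303 to 1069 CPM. Pvalb, encoding the fast-fibre calcium buffer parvalbumin, stayed scarce: it was at 0.376, 0.276 and 0.312 CPM at day 1 and 4.14, 1.64 and 2.28 CPM at day 4 (3.03 ± 0.47 (SE)). Stac3, whose product joins the 2 channels of the triad, fell from 30.2 to 20.9 CPM (-0.52 ± 0.10 (SE), adjusted p = 0.00114), with a value of -0.39 (adjusted p = 0.183) in the fit with a term for the well.

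At the neuromuscular junction and the excitable membrane, 11 of 17 tested genes rose and 1 fell (median 0.67). The acetylcholine receptor of fetal muscle contains a γ subunit, which innervated adult muscle replaces by ε. Both subunit genes rose: Chrng was at 246, 271 and 265 CPM at day 1 and 599, 591 and 631 CPM at day 4 (1.24 ± 0.05 (SE), adjusted p = 6.06e-11), and Chrne had 0.0941, 0 and 0.0781 CPM at day 1 (2 counts in all) and 3.72, 5.21 and 4.08 CPM at day 4. The Chrne ratio was 74.9 (95% counting interval 20.3 to 625). Per kb, Chrne remained far below Chrng at day 4, 2.57 against 146 CPM per kb. Ache, encoding acetylcholinesterase, rose from 2.06 to 8.78 CPM, and the sodium channel gene Scn4a rose from 20.9 to 45.7 CPM. The clustering kinase gene Musk was at 129 CPM and 134 CPM (adjusted p = 0.312), and Rapsn, whose product gathers the receptors, fell from 199 to 148 CPM.

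**Figure D3:**
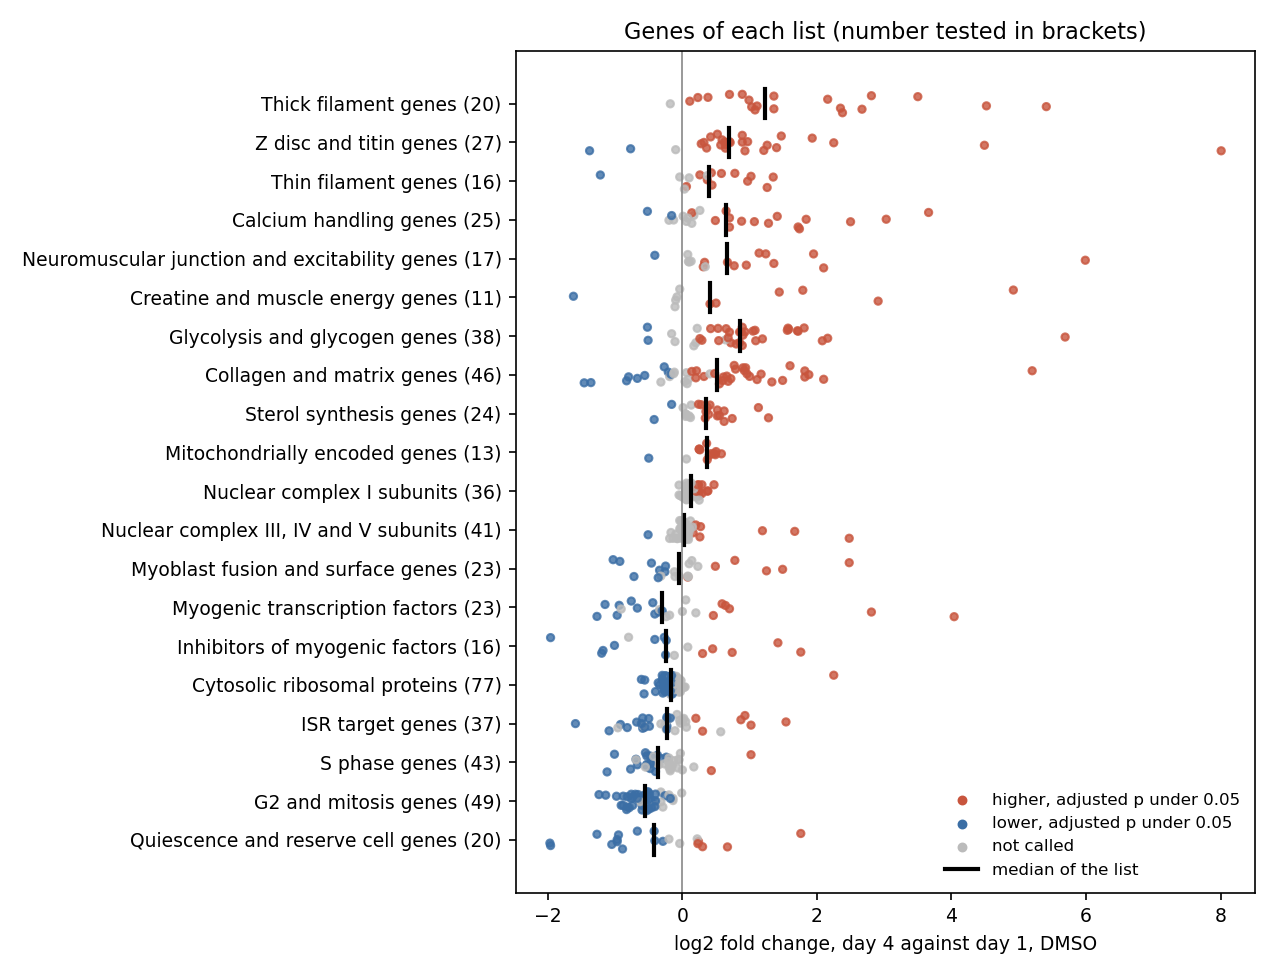
Log2 fold change (day 4 against day 1, DMSO) of every tested gene in 20 lists, coloured by direction where the adjusted p was under 0.05, with the median of each list as a black bar. Contractile, calcium, glycolytic and matrix lists lay mostly to the right of 0 and cell cycle lists to the left, and the point at 8.01 is Myot, which rests on 1 count at day 1.

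To show the DNA at which these genes start, promoter windows of 300 bases (250 before and 50 after the annotated start, RefSeq, GRCm38.p6) were read for 3 genes that rose strongly, chosen for display because their windows hold a match. The window of Mybpc2, which also rose strongly, held none. The E-box CAGCTG, the site form preferred by MyoD and myogenin, and the MEF2 site were searched on both strands, and matches are in capitals.
Myh4, chr11:67237562-67237861, + strand: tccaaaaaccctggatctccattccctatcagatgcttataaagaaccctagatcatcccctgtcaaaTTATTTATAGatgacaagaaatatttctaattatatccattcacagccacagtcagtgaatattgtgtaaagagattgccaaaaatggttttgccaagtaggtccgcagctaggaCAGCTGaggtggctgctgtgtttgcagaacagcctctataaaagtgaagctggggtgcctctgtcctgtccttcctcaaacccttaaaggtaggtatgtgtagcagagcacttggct
Casq1, chr1:172219846-172220145, - strand: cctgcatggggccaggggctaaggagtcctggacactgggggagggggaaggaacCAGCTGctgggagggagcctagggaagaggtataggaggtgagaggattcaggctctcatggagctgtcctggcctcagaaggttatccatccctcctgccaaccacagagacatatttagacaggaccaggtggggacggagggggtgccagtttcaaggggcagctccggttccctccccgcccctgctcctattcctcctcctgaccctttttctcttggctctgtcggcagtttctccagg
Ckmt2, chr13:91876836-91877135, - strand: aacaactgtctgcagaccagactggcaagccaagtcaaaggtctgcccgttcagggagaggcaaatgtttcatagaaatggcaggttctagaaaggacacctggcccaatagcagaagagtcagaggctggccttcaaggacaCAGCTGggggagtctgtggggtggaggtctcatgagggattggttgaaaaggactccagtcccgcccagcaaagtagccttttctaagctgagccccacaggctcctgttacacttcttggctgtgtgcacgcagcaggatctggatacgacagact
Each window held 1 match to CAGCTG, and the Myh4 window also held 1 match to the MEF2 site. Of 86 genes that rose in the thick filament, thin filament, Z disc, calcium, neuromuscular and creatine lists, 61 had at least 1 window, and CAGCTG stood in the windows of 28 (45.9%) and the MEF2 site in those of 11 (18%). Over the 8955 tested genes with a window, the shares were 17.9% and 2.26%, and over all 32851 windows 16.3% and 3.19%. A match is a string of letters and not a measured binding site. Members of these muscle lists that did not rise were not counted, so the shares cannot link a motif to the rise.

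Genes of the fibre's energy supply also changed. Of 11 genes of creatine metabolism and muscle energy, 6 rose and 1 fell. Mb, encoding the oxygen store myoglobin, was at 47.2, 50.2 and 46.1 CPM at day 1 and 318, 372 and 371 CPM at day 4 and rose by 2.91 ± 0.07 (SE) (adjusted p = 8.54e-13). Ckmt2, the muscle form of mitochondrial creatine kinase, had 0, 0 and 0.156 CPM at day 1 and 2.17, 2.1 and 1.9 CPM at day 4, a ratio of 35.3 with a 95% counting interval of 9.37 to 297. Gatm, whose product makes the precursor of creatine, fell from 360.4 to 115 CPM (-1.62 ± 0.05 (SE), adjusted p = 1.56e-11).

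Glycolysis and glycogen genes mostly rose: 30 of 38 tested were higher, 2 were lower, 6 were not called, and the median log2 fold change was 0.85. The muscle-specific step enzymes were among them: Pgam2, the muscle phosphoglycerate mutase, was at 27.2, 30.3 and 32.7 CPM at day 1 and 101, 101 and 111 CPM at day 4 (1.81 ± 0.08 (SE)), and the muscle enolase gene Eno3 and the glycogen phosphorylase gene Pygm rose from 883 to 1397 CPM and from 77.6 to 162 CPM. Ppp1r3a, encoding the subunit that brings phosphatase to muscle glycogen, was at 0.0941, 0.276 and 0.156 CPM at day 1 and 9.83, 10.9 and 7.78 CPM at day 4 and rose by 5.69 ± 0.37 (SE) (adjusted p = 2.43e-08). The hexokinase gene Hk2 rose from 17.9 to 52.6 CPM, the lactate dehydrogenase gene Ldha from 649.7 to 1188 CPM, and the lactate exporter gene Slc16a3 from 10.1 to 44.6 CPM. Pfkfb3, whose product makes the activator of phosphofructokinase, was at 3.11, 2.02 and 2.42 CPM at day 1 and 6.21, 12 and 13.1 CPM at day 4 (2.08 ± 0.29 (SE), adjusted p = 5.19e-05).

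Mitochondrial genes moved far less. Of 36 nuclear complex I subunit genes, 11 rose and 0 fell, with a median of 0.14, the largest being Ndufs4 (from 57.3 to 78.3 CPM, 0.47 ± 0.06 (SE)). Of 41 subunit genes of complexes III, IV and V, 7 rose and 1 fell (median 0.03), and with scaling by library totals alone these counts were 4 and 7. The members that stood out were the isoforms of cytochrome oxidase found in striated muscle: Cox6a2 rose from 21.8 to 49.1 CPM, Cox8b from 5.97 to 18.4 CPM and Cox7a1 from 0.469 to 2.61 CPM, while the general isoform gene Cox8a fell from 206 to 142 CPM. Of 13 protein-coding genes of mitochondrial DNA, 11 rose and 1 fell, with a median of 0.37. The 1 that fell, mt-Nd3 (-0.50), was not called with the well term (adjusted p = 0.133), by DESeq2 (0.12), or without day 4 replicate 1 or 2 (0.0622 and 0.0571). mt-Co1, the catalytic subunit of cytochrome oxidase, was at 1916, 1638 and 1792 CPM at day 1 and 2468, 2606 and 2255 CPM at day 4 (0.48 ± 0.05 (SE)). Among 33 TCA cycle and pyruvate genes, 15 rose and 1 fell (median 0.14), with 7 and 4 under library totals alone. Pdk1, encoding a kinase that turns pyruvate dehydrogenase off, rose most, from 27.6 to 84.9 CPM (1.64 ± 0.10 (SE)). Of 14 regulators of mitochondrial biogenesis tested, 1 rose (7.14%), 2 fell (14.3%) and 11 were not called, beside 21.6% and 18.8% of all genes. The coactivator gene Ppargc1a rose from 1.11 to 2.95 CPM, and the factor gene Nrf1 fell from 30.7 to 22.1 CPM (not called without day 1 replicate 3, adjusted p = 0.0564). Tfam was at 40.3 CPM and 32.5 CPM, a difference called here (adjusted p = 0.0259) but not without day 1 replicate 3 (0.151) or day 4 replicate 2 (0.117), nor with the well term (0.0581). With piericidin 4 of 15 tested biogenesis regulators rose and 1 fell, and with oligomycin 5 rose and 0 fell.

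Routes that carry electrons and fuel into mitochondria changed by member. Of 11 NADH shuttle genes, 8 rose, among them the cytosolic glycerol phosphate dehydrogenase gene Gpd1 (from 1.88 to 6.42 CPM) and the aspartate-glutamate carrier gene Slc25a12 (from 49.4 to 73.6 CPM), and the 1 that fell was Gpd2, the mitochondrial partner of Gpd1 (from 35.6 to 22.1 CPM). Of 26 fatty acid oxidation genes, 11 rose and 5 fell. Cd36, a fatty acid transporter, was at 16.6, 13.6 and 17.3 CPM at day 1 and 53.9, 54.1 and 62.6 CPM at day 4 (1.86 ± 0.10 (SE)) and Fabp3, the muscle fatty acid binding protein, rose from 16.3 to 43.5 CPM. Lpl, the lipase that frees fatty acids from lipoproteins, fell from 14.9 to 2.94 CPM (-2.31 ± 0.24 (SE)), and Cpt1a fell from 52.1 to 34.3 CPM.

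**Figure D4:**
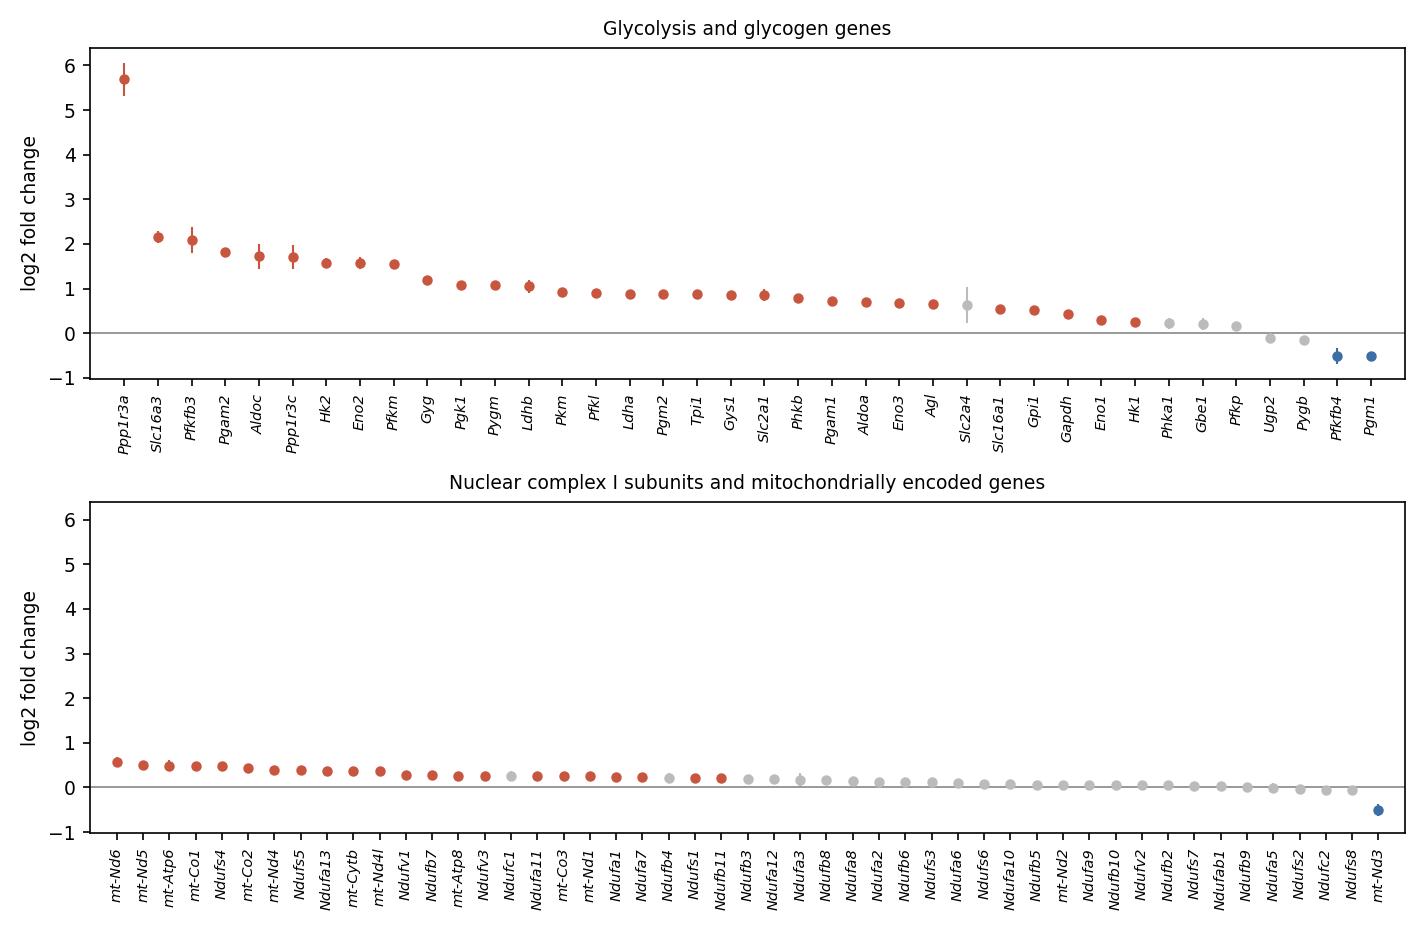
Log2 fold change (day 4 against day 1, DMSO, with standard errors) of 38 glycolysis and glycogen genes, above, and of 36 nuclear complex I and 13 mitochondrially encoded genes, below, on the same scale, with genes that rose in red, that fell in blue and that were not called in grey. Glycolytic genes reached 2 and above while no complex I or mitochondrial gene passed 0.58.

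The series was built to follow the integrated stress response (ISR), the programme that eIF2α phosphorylation and ATF4 set off, and its targets were therefore read in the untreated cells. Of 37 ISR target genes tested, 6 rose and 16 fell between day 1 and day 4, with a median log2 fold change of -0.23. The serine and asparagine synthesis genes were among those that fell: Psat1 was at 447, 459 and 467 CPM at day 1 and 253, 237 and 223 CPM at day 4 (-0.92 ± 0.05 (SE), adjusted p = 1.94e-09), and Phgdh and Asns fell from 379 to 212 CPM and from 169 to 104 CPM. Gdf15, which encodes a secreted stress signal, was low on both days and fell from 5.8 to 1.9 CPM (-1.59 ± 0.26 (SE), adjusted p = 0.000191). In the other direction, Trib3 rose from 5.89 to 11 CPM and the lipoprotein receptor gene Vldlr from 6.4 to 18.4 CPM. A list can hold genes with other regulators, and Vegfa, the vascular growth factor gene, which rose from 2.45 to 4.9 CPM, is one of them. With piericidin 7 of the 37 ISR target genes rose and 11 fell (median 0.03), and with oligomycin 6 rose and 12 fell (median -0.14).

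Most G2 and mitosis genes fell, a smaller share of S phase genes fell, and G1 regulators changed in both directions. Of 49 G2 and mitosis genes tested, 40 fell and 0 rose, with a median log2 fold change of -0.55. The summed level of the list was 1356 to 1432 CPM at day 1 and 885 to 1043 CPM at day 4. Ube2c, encoding the ubiquitin-conjugating enzyme of the anaphase-promoting complex, was at 47.2, 47.8 and 48.8 CPM at day 1 and 26.9, 23.7 and 21.3 CPM at day 4 (-0.98 ± 0.09 (SE), adjusted p = 7.42e-07). The kinesin gene Cenpe fell from 12.5 to 5.23 CPM and the cyclin F gene Ccnf from 20.0 to 8.94 CPM. Of 43 S phase genes, 17 fell and 2 rose (median -0.37). Cdt1, which licenses origins, fell from 14.8 to 7.25 CPM, and Pcna was at 45.8 CPM and 45.1 CPM (adjusted p = 0.996). Chaf1a, a histone chaperone gene, rose from 3.6 to 7.22 CPM, with a value of 0.24 (adjusted p = 0.664) in the fit with the well term. Among 24 regulators of G1, 7 rose and 6 fell. Cdkn1a, encoding the cell cycle inhibitor p21, was at 1074, 1099 and 1120.2 CPM at day 1 and 1586, 1488 and 1527 CPM at day 4 (0.51 ± 0.03 (SE)), Ccnd1 fell from 29 to 15.1 CPM, Cdk4 fell from 269 to 163 CPM, and Ccnd3, the cyclin D of differentiated muscle, rose from 465 to 592 CPM.

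Promoters of 3 mitotic genes are shown, chosen for display among those whose windows hold both motifs. In the windows below, capitals mark the cell cycle homology region core TTTGAA and the CCAAT box, each on either strand.
Ube2c, chr2:164769679-164769978, + strand: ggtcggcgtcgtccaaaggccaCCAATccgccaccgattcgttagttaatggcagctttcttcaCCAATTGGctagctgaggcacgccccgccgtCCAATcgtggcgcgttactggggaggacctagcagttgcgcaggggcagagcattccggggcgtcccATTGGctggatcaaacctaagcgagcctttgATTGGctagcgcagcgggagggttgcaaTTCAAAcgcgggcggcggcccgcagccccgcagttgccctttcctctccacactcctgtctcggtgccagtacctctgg
Cdc20, chr4:118437294-118437593, - strand: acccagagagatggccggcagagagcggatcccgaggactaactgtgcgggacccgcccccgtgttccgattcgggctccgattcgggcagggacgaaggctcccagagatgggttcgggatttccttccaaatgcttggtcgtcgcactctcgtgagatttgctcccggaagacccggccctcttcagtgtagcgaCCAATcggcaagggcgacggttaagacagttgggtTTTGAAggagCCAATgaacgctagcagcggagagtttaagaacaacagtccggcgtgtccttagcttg
Ccnf, chr17:24251360-24251659, - strand: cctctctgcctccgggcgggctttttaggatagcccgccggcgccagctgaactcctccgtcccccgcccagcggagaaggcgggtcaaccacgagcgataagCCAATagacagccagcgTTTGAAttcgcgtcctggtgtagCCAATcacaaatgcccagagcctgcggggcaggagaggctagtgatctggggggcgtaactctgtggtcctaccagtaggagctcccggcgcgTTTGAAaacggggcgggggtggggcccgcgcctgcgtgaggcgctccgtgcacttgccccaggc
The Ube2c window held 1 match to TTTGAA and 6 to CCAAT, the Cdc20 window 1 and 2, and the Ccnf window 2 and 2. Of the 40 G2 and mitosis genes that fell, 32 had a window, and 23 of these (71.9%) held TTTGAA and 24 (75.0%) held CCAAT, beside 14.1% and 43.6% of the 8955 tested genes with a window and 17.9% and 37.4% of all windows. Of the S phase genes that fell, 15 had a window, and TTTGAA stood in 1 of them and CCAAT in 10. All 11 sterol synthesis genes that rose and had a window held CCAAT. Members of these lists that did not change in the stated direction were not counted, so the shares cannot link a motif to the change.

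Genes of the extracellular matrix changed in both directions, more often upward. Of 46 collagen and matrix genes, 28 rose and 9 fell (median 0.52, or 0.35 in the fit with the well term). Col25a1, a transmembrane collagen made by muscle, was at 0.0941, 0.276 and 0.781 CPM at day 1 and 11.7, 18.1 and 15.5 CPM at day 4 and rose by 5.20 ± 0.37 (SE) (adjusted p = 5.93e-08). The fibrillar genes Col1a1 and Col5a1 rose from 114 to 316 CPM and from 94 to 327 CPM, and the adhesion-modulating genes Tnc (tenascin C) and Postn (periostin) rose from 80.6 to 279 CPM and from 53.7 to 194 CPM. The proteoglycan gene Dcn fell from 86 to 30.8 CPM (-1.46 ± 0.07 (SE)), and the basement membrane gene Nid1 fell from 168 to 95.2 CPM. Of 14 matrix protease and inhibitor genes, 6 rose, among them the inhibitor gene Timp1 (from 216 to 414 CPM), and 4 fell, led by the urokinase gene Plau (from 125 to 42.3 CPM).

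Fusion genes did not move as a group. Of 23 tested, 6 rose and 8 fell (median -0.05). Both fusogens, Mymk and Mymx, were at a high level on both days: Mymx was at 90.0, 96.3 and 102 CPM at day 1 and 107, 100.2 and 105 CPM at day 4 (adjusted p = 0.0809, and 0.0435 without day 1 replicate 3). Cav3, the caveolin of the muscle membrane, was at 18, 17.7 and 19.3 CPM at day 1 and 98.6, 97.5 and 106 CPM at day 4 (2.48 ± 0.07 (SE)), and Trim72, whose product helps reseal membrane, rose from 34.6 to 95.8 CPM, as did Itgb1, the β1 integrin gene (from 234 to 550.2 CPM). Cdh15, the cadherin of myoblasts and early myotubes, fell from 537 to 277 CPM (-0.93 ± 0.04 (SE), adjusted p = 8.14e-10).

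Reserve cell and secreted factor genes were more often lower than higher. Of 20 quiescence and reserve cell genes, 12 fell and 5 rose. Vcam1, an adhesion receptor, was at 159, 172 and 162 CPM at day 1 and 45.8, 39.7 and 38.4 CPM at day 4 (-1.97 ± 0.07 (SE), adjusted p = 3.43e-11), and the chemokine receptor gene Cxcr4 fell from 21.1 to 10.0 CPM and Notch3 from 38.2 to 19.2 CPM. Of 17 chemokine and cytokine genes, 9 fell, with Ccl2 going from 5.45 to 0.717 CPM and Cxcl5 from 9.21 to 2.33 CPM, and 3 rose. Mest, an imprinted gene of growing mesoderm, had the largest fall of any listed gene: it was at 421, 476 and 436 CPM at day 1 and 51.4, 46.2 and 42.6 CPM at day 4, a change of -3.23 ± 0.07 (SE) on the log2 scale (adjusted p = 3.34e-13). Of 10 imprinted growth genes tested, 5 fell and 1 rose.

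Some broad housekeeping lists moved little per gene. Of 77 cytosolic ribosomal protein genes, 49 fell and 1 rose, with a median of -0.17 that stayed between -0.165 and -0.275 under the other scalings. The 1 that rose was Rps2, at 2.07, 1.29 and 1.95 CPM at day 1 and 7.03, 9.05 and 9.02 CPM at day 4, a level far under that of its fellow genes, and with the well term its value was 0.74 (adjusted p = 0.343). Ribosomal protein genes have many near-identical processed copies, and how reads were divided among them is uncertain. Of 39 ribosome biogenesis genes, 5 rose and 10 fell, Npm1 from 534 to 373 CPM. With oligomycin 21 rose and 2 fell, and 14 of the 39 changed more positively than with DMSO, beside 2.97% of all genes. Of 24 sterol synthesis genes, 15 rose and 2 fell, with Dhcr7, the last enzyme of cholesterol synthesis, at 29.6, 29.3 and 30.1 CPM at day 1 and 66.1, 71.3 and 76.3 CPM at day 4 (1.28 ± 0.07 (SE)). Among 24 genes of muscle growth and atrophy, 9 rose, Igfbp4 the most (from 49.5 to 137 CPM), and 3 fell. YAP target genes (4 higher and 6 lower of 22) and interferon and antigen genes (2 and 5 of 26) completed the lists.

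Outside the lists, the 12 genes with the largest rises and the 12 with the largest falls were taken by rule among genes with a mean of at least 50 counts. Ighm, the constant region gene of the immunoglobulin μ heavy chain (chromosome 12, 113418558 to 113422730, GRCm38), had 0, 0 and 0 CPM at day 1 and 27.7, 30.8 and 31.2 CPM at day 4. Against a floor of 3 counts over the day 1 group, Ighm was at least 343-fold higher in the myotubes. Its day 4 level with piericidin and oligomycin also stood above day 1 (adjusted p = 1.56e-10 and 6.04e-11). Whether those reads come from a spliced Ighm message was not tested. Other genes in this set have known roles in muscle: Dmd, encoding dystrophin, was at 1.04, 0.92 and 0.546 CPM at day 1 and 9.31, 12.4 and 11.1 CPM at day 4 (3.75 ± 0.28 (SE)), Fbxo40, a muscle-specific ubiquitin ligase subunit gene, rose from 1.28 to 19.5 CPM, and Fgf13, whose product binds sodium channels inside the cell, rose from 0.787 to 17 CPM. Car9, a membrane carbonic anhydrase, was at 3.01, 2.39 and 2.81 CPM at day 1 and 27, 47.4 and 53.2 CPM at day 4 (3.98 ± 0.25 (SE), adjusted p = 1.79e-08). Gdf5, a ligand of the BMP family, rose from 1.35 to 26.1 CPM, Cd28, known as a T cell receptor partner, rose from 0.777 to 14 CPM, and Tnfrsf19 rose from 0.652 to 12.6 CPM. Lrrc26, Asb14, Pacsin1 and Card14 completed the set, each ending under 20 CPM.

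Of the 12 genes that fell most outside the lists, Ogn, encoding the small matrix proteoglycan mimecan, was the most abundant, at 1431, 1365 and 1378 CPM at day 1 and 356, 357 and 354 CPM at day 4, with a change of -1.95 ± 0.03 (SE) (adjusted p = 2.54e-14). Fbln7, a fibulin gene, was at 79.7, 78 and 78.9 CPM at day 1 and 11, 12.6 and 11.4 CPM at day 4 (-2.73 ± 0.08 (SE)). Ptn, encoding the growth factor pleiotrophin, fell from 44.9 to 8.29 CPM, the dynein intermediate chain gene Dync1i1 fell from 67 to 11.4 CPM, and Cavin2, a caveola coat gene, fell from 116 to 32.1 CPM. Car8, Blnk, Plin4, Nov, Zfp521 and Ptprv each fell from under 10 CPM, and Ddc, the dopa decarboxylase gene, fell from 20.8 to 5.21 CPM.

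Defining markers of fat, endothelial and blood cells were at or near 0. Of the 10 endothelial and blood cell markers, only Pecam1 passed the count filter, at 1.99 CPM and 1.80 CPM, and the summed level of the list was 3.04 to 4.14 CPM at day 1 and 3.23 to 3.93 CPM at day 4. The 8 adipocyte markers summed to 4.42 to 5.07 CPM and 2.28 to 3.52 CPM, and the neural list to 39.2 to 44.4 CPM and 47.0 to 47.6 CPM, most of it Tubb3 (37.7 CPM and 38.8 CPM), which differentiating muscle also expresses. The other neural marker tested, Syn1, which encodes a synaptic vesicle protein, was at 1.41, 4.97 and 3.51 CPM at day 1 and 6.62, 8.68 and 7.02 CPM at day 4 (1.19 ± 0.32 (SE), adjusted p = 0.00878), and was not called in the fit with a well term (0.79, adjusted p = 0.065). The Timp1 gene, which rose at a far higher level, lies within Syn1 on the opposite strand. Whether Timp1 reads entered the Syn1 counts was not tested. In the osteoblast and cartilage list Dmp1 fell from 4.38 to 0.906 CPM. The smooth muscle list held Acta2, which fell from 3425 to 1641 CPM, and Des, which belongs to skeletal muscle too, while Myh11 and Myocd did not pass the filter.

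The 2 inhibitor comparisons, on other samples, gave a further reading of day 4 against day 1. With piericidin, as with DMSO, all 3 day 1 samples were in outer wells and all 3 day 4 samples in inner wells, so that day and well position cannot be told apart there either. With piericidin, 2419 of 12294 genes (19.7%) were higher and 2177 (17.7%) lower, and with oligomycin 2365 (19.2%) were higher and 1805 (14.7%) lower. Genes higher at day 4 were 52.6% of the calls with piericidin and 56.7% with oligomycin, against 39.2% with library totals alone for piericidin and 43.1% with upper quartile scaling for oligomycin. The 12 libraries held 6458295 to 11940850 counts, the shallowest being day 4 piericidin replicate 1. Of the 2590 genes higher with DMSO, 1920 (74.1%) were also higher with piericidin. These were 80.5% of the 2385 genes higher with piericidin among the 11995 tested in both. With oligomycin 1540 (59.5%) were also higher, or 66.8% of the 2306 higher with oligomycin among those tested in both. The counts for the genes lower with DMSO were 1475 (65.2%) and 1234 (54.6%) of 2261. Genes with opposite calls numbered 12 with piericidin and 48 with oligomycin. The thick filament list had 20 of 21 genes higher with each inhibitor and the Z disc list 24 and 25 of 27. Myh4 rose by 5.10 with piericidin and 5.90 with oligomycin, and Casq1 by 3.51 and 3.68. The G2 and mitosis list had 26 and 14 of 49 genes lower, and the S phase list 13 and 3 of 43. In the S phase list 2 and 6 genes were higher. With oligomycin its share in each direction was below that of all genes, and its median was 0.02 beside 0.016 over all genes.

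Within outer wells, where 2 day 4 and 3 day 1 oligomycin samples could be compared, 2063 genes were higher and 1496 lower at day 4, with 20 of 21 thick filament genes, 25 of 27 Z disc genes and 18 of 25 calcium handling genes among those higher. Myh4 rose by 5.90 ± 0.10 (SE), Casq1 by 3.68 ± 0.08 and Tcap by 5.63 ± 0.20 there. In all 6 oligomycin samples the values were 5.90, 3.68 and 5.65, and the outer-well fit shares 5 of those 6 samples. The glycolysis list had 27 of 38 genes higher. The G2 and mitosis list had 11 of 49 genes lower in outer wells, against 14 in all 6 oligomycin samples and 40 with DMSO. These outer-well samples had codes A07 and H07 at day 4 and B12, E12 and H12 at day 1. Plate column thus still went with day.

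The size of the day 4 against day 1 change itself differed between an inhibitor and DMSO for few genes. Against DMSO, the change was more positive with piericidin for 30 genes (0.244% of 12294) and more negative for 43 (0.35%), and with oligomycin more positive for 365 (2.97%) and more negative for 228 (1.85%). Of the day 4 oligomycin samples 2 were in outer wells, whereas all day 4 DMSO and piericidin samples were in inner wells. An oligomycin difference thus cannot be fully told apart from well position. The difference counts moved with single libraries. The 365 became 197 without day 4 DMSO replicate 3, 223 without day 4 oligomycin replicate 1, 228 without day 1 oligomycin replicate 2 and 235 without day 1 DMSO replicate 3. The 228 became 150 without either of those oligomycin samples. The 43 became 24 without day 4 DMSO replicate 3, day 1 DMSO replicate 3 or day 4 piericidin replicate 2, 26 without day 1 piericidin replicate 3, and 27 without day 1 DMSO replicate 1 or 2. The share of positive differences was 41.1% with piericidin and 61.6% with oligomycin, and with library totals alone 52.9% and 77.5%. For oligomycin it was 49.4% with upper quartile scaling and 45.9% with no count filter. Of 38 glycolysis genes tested, 6 were among the 43 and none among the 30, and with oligomycin 5 were more positive and 5 more negative. Pfkfb3 went from 2.08 with DMSO to -0.38 with piericidin and 0.00 with oligomycin, a difference of -2.46 ± 0.52 (SE) (adjusted p = 0.0337) and -2.07 ± 0.50 (SE) (adjusted p = 0.0233). The phosphofructokinase gene Pfkl rose by 0.90 with DMSO and stood at -0.42 and -0.16 with the inhibitors, and Pgam1 rose by 0.72 and stood at -0.08 and 0.04. Smaller changes with the inhibitors were also seen in genes outside the lists that were named after their values were seen: Bnip3, encoding a mitophagy receptor, rose by 2.01, 1.10 and 0.85 with DMSO, piericidin and oligomycin, Egln3, a prolyl hydroxylase gene, by 1.87, 1.01 and 1.12, and Ndrg1 stood at 1.02, 0.18 and -0.29. Car9 rose in each comparison (3.98, 4.22 and 4.01), with differences of 0.24 ± 0.43 (SE) and 0.03 ± 0.42 (SE). E2f2, a cell cycle transcription factor gene, rose by 0.59 with DMSO and fell with piericidin (-0.86) and oligomycin (-1.22).

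Among muscle genes, Tcap rose more with both inhibitors (difference 1.16 ± 0.23 (SE), adjusted p = 0.0245, with piericidin). Myog, which fell by 0.94 on the log2 scale with DMSO, was at -0.08 with oligomycin (adjusted p = 0.14), a difference of 0.87 ± 0.06 (SE) (adjusted p = 2.97e-08). Of the mitochondrially encoded genes, 7 of 13 changed more negatively with oligomycin than with DMSO. Of 21 thick filament genes tested, 7 changed more positively with oligomycin than with DMSO and 0 more negatively. For the Z disc list these counts were 12 and 0 of 27, and for ISR targets 11 and 3 of 37. Over all genes the shares were 2.97% and 1.85%. Abra, which encodes an actin-binding activator of serum response factor, stood at 0.10 with DMSO (adjusted p = 0.389) and rose by 2.30 with oligomycin.

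**Figure D5:**
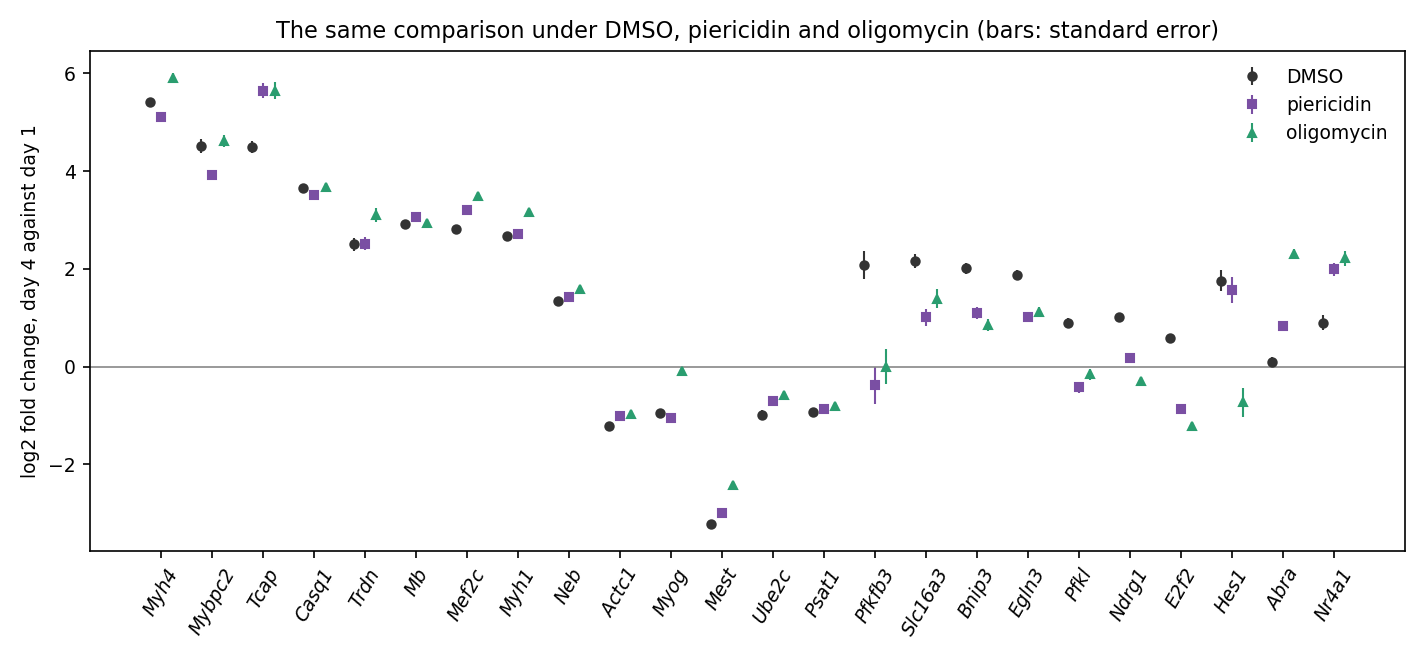
Log2 fold change of day 4 against day 1 with its standard error for 24 genes in the DMSO, piericidin and oligomycin comparisons, which share no sample. The contractile genes on the left rose in all 3 except Actc1, which fell with DMSO. Pfkfb3, Pfkl, Ndrg1 and E2f2 rose only with DMSO among the 3 comparisons, and Hes1 rose with DMSO and piericidin.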

How the data were processed

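RNA was measured by poly(A) Smart-seq2 libraries, which are not strand-specific, so reads of overlapping or antisense genes cannot be told apart. The authors deposited estimated counts per gene. Their methods give kallisto with bias correction on Ensembl transcripts of GRCm38.p6 with the transgenes added, and the submitters' processing notes name kallisto 0.44 and bcl2fastq 2.20.0.422. Estimated counts were rounded to whole numbers. A gene was kept when 1 group or more had no replicate under 16 counts, scaled by TMM, and tested with edgeR 4.0.16's quasi-likelihood test (limma 3.58.1, R 4.3.3) with Benjamini-Hochberg adjustment at 0.05. The 6 DMSO samples were fitted alone, and the inhibitor and difference tests on 18 samples. The share of sarcomere counts was tested by an exact permutation test (SciPy 1.17.1, Python 3.11.15). Scripts were tested on simulated data. DESeq2 1.42.0 and the other alternatives are given at the end, and leaving out CT010467.1, the 96-sample fit without a well term and the outer-well values were added after seeing the data.

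Named genes were, per list, the called members with the largest changes in each direction (up to 4 each) and members whose role the text explains. Outside the lists they were the 12 highest and 12 lowest called genes with a mean of at least 50 counts, no overlap between the groups and no predicted gene name. Genes whose change differed with the inhibitors were named after their values were seen. Members and lists were chosen with earlier results of these data known. Levels per kb divide CPM by exon length. Promoter windows are from RefSeq (GRCm38.p6). Counting intervals and floors (3 counts) cover counting error only. Same-numbered replicates did not deviate together, so no pairing was used, and no 2 replicates agreed within sampling noise.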

Additional observations from a re-analysis of the deposited data

Results flagged for a closer look

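The day 4 against day 1 change differed between piericidin and DMSO for 73 genes, tested as the difference itself with edgeR's quasi-likelihood test and Benjamini-Hochberg adjustment over 12294 genes. Among genes named above or drawn in the figures, the log2 difference (piericidin minus DMSO) was negative for these genes: Pfkfb3 -2.46, E2f2 -1.45, Pfkl -1.32, Slc16a3 -1.15, Bnip3 -0.91, Egln3 -0.86, Ndrg1 -0.84, Pgam1 -0.81, Chrng -0.26. It was positive for these: Tcap 1.16, Nr4a1 1.09, Abra 0.73, Fhl1 0.63, Myh7 0.55, Acta1 0.31, Actc1 0.21.

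The day 4 against day 1 change differed between oligomycin and DMSO for 593 genes, tested as the difference itself with edgeR's quasi-likelihood test and Benjamini-Hochberg adjustment over 12294 genes. Well position also differed between these day 4 groups, as given above. Among genes named above or drawn in the figures, the log2 difference (oligomycin minus DMSO) was negative for these genes: Hes1 -2.49, Pfkfb3 -2.07, Vldlr -1.89, E2f2 -1.81, Ndrg1 -1.31, Bnip3 -1.16, Pfkl -1.06, Ddc -1.02, Dync1i1 -0.79, Egln3 -0.75, Pgam1 -0.69, Fabp3 -0.53, Trib3 -0.5, Mef2d -0.46, Cdkn1a -0.26. It was positive for these: Abra 2.19, Gdf15 1.44, Nr4a1 1.32, Ankrd23 1.3, Tcap 1.16, Mybpc1 0.95, Myog 0.87, Mest 0.79, Myh8 0.75, Mef2c 0.68, Tfam 0.62, Myh7 0.52, Pcna 0.51, Myh1 0.5, Fhl1 0.5, Myh4 0.49, Pygm 0.48, Ttn 0.48, Acta1 0.36, Myh3 0.32, Tpm1 0.29, Asns 0.29, Eno3 0.26, Actc1 0.24, Cdk4 0.21.

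Samples far from their group were not sought, because groups of 3 are too small for that test. In the fit of all 96 samples with a well term, the differences were 47 positive and 78 negative with piericidin and 345 and 164 with oligomycin.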

How the results depend on the processing

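Scaling by library totals alone gave 3446 lower genes with DMSO, and turned the small values of Mymk (-0.02) and Acta1 (-0.04). It left 24 more negative differences with piericidin and 147 with oligomycin. Requiring a 2-fold change besides gave 825 higher and 277 lower genes with DMSO, 898 and 249 with piericidin, 628 and 223 with oligomycin, and 5 and 5 and 35 and 96 for the differences of piericidin and oligomycin from DMSO. With no count filter the piericidin differences were 116 and 97, and the more negative oligomycin differences 420. The fit of all 96 samples with a well term gave 47 and 78 piericidin differences, that without it gave 140 more negative oligomycin differences, and DESeq2 gave 55 and 73 piericidin differences. In the DMSO comparison DESeq2 gave 2391 higher and 1935 lower genes, and the fit with a well term 2001 and 1899. The cause of these shifts was not tested.

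Leaving out each library in turn gave 2280 to 2439 higher and 1860 to 2018 lower genes with DMSO, 2076 to 2341 and 1701 to 1944 with piericidin, and 2063 to 2196 and 1496 to 1628 with oligomycin. The difference counts were 20 to 29 and 24 to 37 with piericidin, and 197 to 329 and 150 to 284 with oligomycin. A replicate block gave 2510 and 2186 genes with DMSO. Same-numbered samples shared only a number (correlations of their deviations from -0.006 to 0.047 with DMSO). The sarcomere share differed by 0.893 to 1.06 points without single libraries and by 1.56 points with CT010467.1 left out of the totals. Counts in groups of 3 limit genes of a few CPM most.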
